A study of Mus musculus with 3 samples.

Results

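Ambra1 was the gene of interest in a Tuba-seq experiment, in which a pool of barcoded lentiviruses started lung tumours in mice and the number of neoplastic cells in each tumour was read from its barcode. The tumours described here were those listed with 1 of the 3 Ambra1 guide RNAs of the pool, Ambra1#1, Ambra1#2 and Ambra1#3. These made up 197293 of the 1318841 listed barcodes, and 9975 of the 57536 barcodes that reached 500 cells, the size from which a barcode was counted as a tumour. Their reference was the 29056 tumours of at least 500 cells with an inert guide in the same mice. Inert guides either match no mouse sequence (NT1 and NT2) or cut a neomycin cassette (Neo1, Neo2 and Neo3). The pool also held 2 guides to Rb1, 1 to Apc and 2 to Rbm10.

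All 17 mice received the same viral pool into the airways and were analysed 15 weeks later. By the usual meaning of these strain names, T is a tdTomato reporter, which all 3 genotypes shared, C is a Cas9 transgene and P is a Cre-deleted Trp53 (p53) allele. The KT group (4 mice, 2 female and 2 male) had no Cas9, so its Ambra1 tumours carried the guide without being edited and served as the control. The KTC group (9 mice, 5 female and 4 male) had Cas9 with p53 intact, and the KPTC group (4 mice, all male) had Cas9 with p53 deleted. The sources used here do not give the age of the mice. Whether a given tumour carried an Ambra1 mutation, on how many alleles and whether in frame, was not measured, so an Ambra1 tumour below means a tumour with an Ambra1 guide.

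AMBRA1 is a large adaptor protein of the CUL4-DDB1 ubiquitin ligase that is known for marking D-type cyclins for degradation, and it was first described as a regulator of autophagy. Cyclin D activates CDK4 and CDK6, which phosphorylate and inactivate RB1, the protein that holds cells before DNA replication. The pool thus targeted a regulator at the start of this pathway (Ambra1) and its end point (Rb1), beside Apc, a negative regulator of Wnt signalling, and Rbm10, a splicing factor. Which effect Ambra1 guides had on tumour growth with p53 intact and with p53 deleted is the question the design addresses. Mouse Ambra1 has the NCBI gene ID 228361 and lies on chromosome 2. The guides' target sequences and the exons they cut were not analysed here.

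A tumour was identified by its guide and a barcode of 30 bases, of which 10 were fixed and 20 free, and 100% of the Ambra1 barcodes had every fixed base in place. The largest Ambra1 tumour of each genotype is shown, as the extreme of the size range described below. Fixed bases are in lower case and free bases in capitals.
KPTC mouse 4, Ambra1#1: gcACCTGtaGCTTTgcGCTGTtaCTTCGgc
KTC mouse 2, Ambra1#2: gcGTTTCtaTTTATgcAGGATtaTTTTAgc
KT mouse 2, Ambra1#1: gcGATATtaTCTATgcTTGCAtaTTTCAgc
The KPTC tumour was listed at 2293270 cells from 617471 reads, the KTC tumour at 197929 cells and the KT tumour at 75273 cells. The KPTC tumour alone held 22.6% of all cells in tumours of its mouse. It was the only Ambra1 tumour above 1000000 cells, among 7 such tumours of any guide, all in KPTC mice. The same 3 barcodes were also listed in other mice (6, 3 and 4 mice in all), but nowhere else above 201 cells.

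The libraries differed in depth from 338871 to 10456649 reads per mouse, and 1 read stood for 1.08 cells in the deepest (KT mouse 4) and for 132 cells in KPTC mouse 1, the most of any mouse. A tumour of 500 cells therefore rested on 3.80 reads in KPTC mouse 1 and on 18.4 to 465 reads in the other mice. KPTC mouse 1 listed no barcode below 263 cells. KTC mice 6 and 7 had 29 and 105 inert tumours, fewer than any other mouse, and their ratios are the least precise. The spread between mice, and not counting error, is the error used below. The 2 comparisons with KT shared the same 4 control mice.

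By mean size, Ambra1 tumours were larger than inert tumours in every mouse with Cas9. Relative size is the log2 ratio of the log-normal mean size of Ambra1 tumours to that of the inert tumours of the same mouse. In KTC mice 1 to 9 it was 1.82, 2.28, 1.69, 1.37, 1.85, 1.39, 1.08, 1.04 and 2.05. In KPTC mice 1 to 4 it was 2.12, 0.76, 2.64 and 2.23. In KT mice 1 to 4, without Cas9, it was -0.20, -0.06, -0.07 and -0.12. No KTC or KPTC mouse overlapped with a KT mouse, and the KTC and KPTC values overlapped with each other.

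In cells, the mean Ambra1 tumour of KTC mice ran from 1741 (mouse 6, inert tumours 666) to 7549 (mouse 2, inert 1551), with a median of 3993. In KPTC mice it was 8959, 3833, 17195 and 8434 cells against 2056, 2265, 2768 and 1793 cells for inert tumours. In KT mice it was 1562, 1416, 1683 and 1216 cells against 1797, 1477, 1765 and 1325 cells. KPTC mouse 2 stood apart from its genotype, with the smallest mean Ambra1 tumour of the 4 and ordinary inert tumours. By the median, its Ambra1 tumours had 855 cells and its inert tumours 882 cells, the reverse of the other 12 mice with Cas9.

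Averaged over mice, relative size was 1.62 ± 0.43 (SD, n = 9) for KTC, 1.94 ± 0.82 (n = 4) for KPTC and -0.11 ± 0.07 (n = 4) for KT. The KTC mean exceeded KT by 1.73, a 3.32-fold difference (two-sided exact permutation of mouse labels, p adjusted over the 4 genes of the pool = 0.0028). The KPTC mean exceeded KT by 2.05, or 4.15-fold (exact permutation, adjusted p = 0.029, the smallest p that 4 against 4 mice allow). With any 1 KT mouse left out, the KPTC difference stayed between 2.02 and 2.07. The call was then lost (exact permutation, adjusted p = 0.057, above the threshold of 0.05). KTC and KPTC differed by -0.32 (exact permutation p = 0.36), and without KPTC mouse 2 by -0.71 (adjusted p = 0.045). Counted from 200 cells it was 0.25 (adjusted p = 0.54 by exact permutation), a minimum below the smallest barcode of KPTC mouse 1 (263 cells). Counted from 1000 cells it was -0.77 (adjusted p = 0.020 by exact permutation). The sign and the call of the KTC against KPTC difference thus changed with the size from which tumours were counted, and the positive value was not called. With the geometric mean as size, which gives large tumours less weight, the differences from KT were 1.08 for KTC and 0.90 for KPTC on the log2 scale (adjusted p = 0.0056 and 0.038 by exact permutation).

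**Figure D1:**
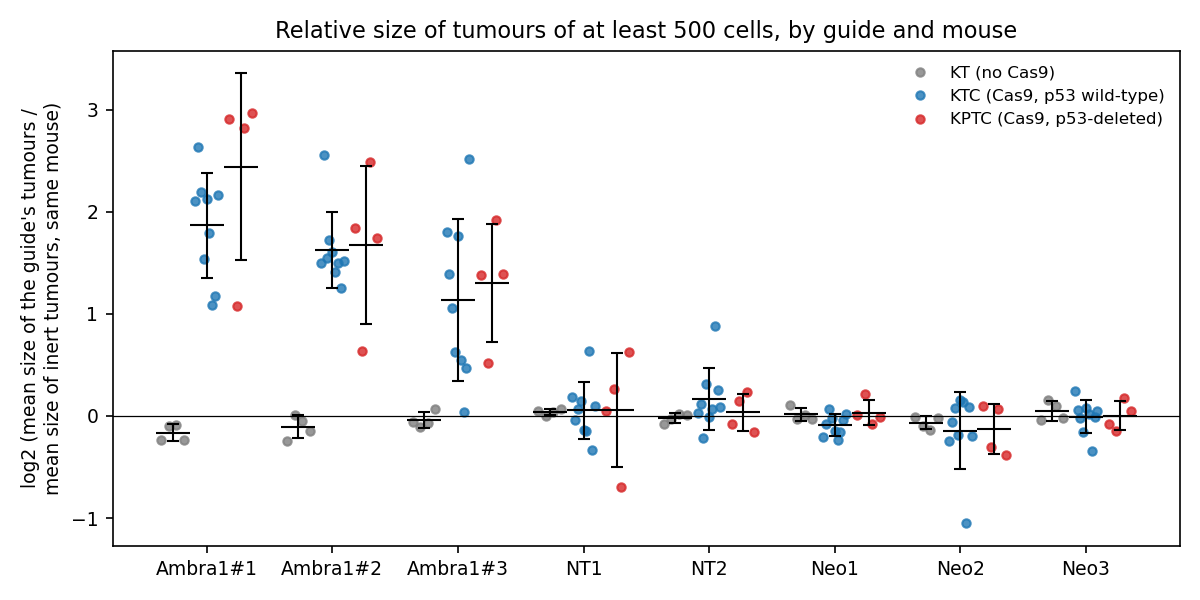
Relative size (y axis, log2 ratio of mean tumour sizes within a mouse) of tumours with each Ambra1 guide and each inert guide (x axis), a point per mouse, with bars for the mean and SD over the mice of a genotype. Each inert guide is set against the other 4 inert guides of its mouse. All Ambra1 points of KTC and KPTC mice lie above 0, from 0.04 upward, while KT points lie around 0. Inert guides of mice with Cas9 scatter more widely, from -1.05 (Neo2) to 0.88 (NT2), both in KTC mouse 7. Some inert points thus lie above the lowest Ambra1 points.

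Each of the 3 guides gave tumours of a larger mean relative size with Cas9. Ambra1#1 had a relative size of -0.24, -0.10, -0.09 and -0.24 in KT mice 1 to 4, of 1.08 to 2.63 in KTC mice (median 2.11) and of 2.91, 1.07, 2.82 and 2.96 in KPTC mice 1 to 4. Ambra1#2 had -0.25, 0.01, -0.05 and -0.15 in KT mice, 1.25 to 2.56 in KTC mice (median 1.51) and 1.84, 0.63, 2.49 and 1.74 in KPTC mice. Ambra1#3 had -0.06, -0.11, -0.07 and 0.07 in KT mice, 0.04 to 2.52 in KTC mice (median 1.06) and 1.38, 0.52, 1.92 and 1.39 in KPTC mice. KPTC mouse 2 was the lowest of its genotype with all 3 guides.

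Relative to inert tumours of the same mouse, Ambra1#1 tumours were 4.10-fold larger in KTC than in KT mice and Ambra1#2 tumours 3.32-fold (exact permutation, p adjusted over 8 guides = 0.0037 for both). The relative size of Ambra1#3 tumours was 2.26-fold larger (exact permutation, adjusted p = 0.025). All 3 guides were thus called, where 87.5% of the 8 targeting guides of the pool were. The Ambra1#3 call was lost without KT mouse 1 (1.17 on the log2 scale, exact permutation, adjusted p = 0.051), mouse 2 (1.16, 0.064) or mouse 3 (1.17, 0.051). In KPTC mice the relative sizes of guides 1 to 3 were 6.10-, 3.44- and 2.54-fold those in KT mice (exact permutation, adjusted p = 0.038 for each). Again all 3 were called, where 75% of the 8 guides were, and none was called once any KT mouse was left out (exact permutation, adjusted p = 0.076).

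The guides differed from each other in strength. In all 4 KPTC mice the order of relative sizes was Ambra1#1, Ambra1#2, Ambra1#3 from largest to smallest. The same order held in 3 of 9 KTC mice and in no KT mouse, and Ambra1#3 gave the smallest tumours in 6 of 9 KTC mice. KTC mouse 9 went the other way, with Ambra1#3 at 2.52, above Ambra1#1 at 2.16 and Ambra1#2 at 1.51.

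Within KTC mice, Ambra1#1 tumours exceeded Ambra1#3 tumours by 0.73 ± 0.54 on the log2 scale, or 1.66-fold, in 8 of 9 mice (exact sign-flip test, p adjusted over 3 guide pairs = 0.035). This call was lost when any of KTC mice 2 to 8 was left out, with values from 0.67 to 0.78 (exact sign-flip test, adjusted p = 0.070). Set against the same ratio in KT mice, the difference was 0.86 (exact permutation, adjusted p = 0.0503). It was called at 0.91 without KTC mouse 1 (exact permutation, adjusted p = 0.048) and at 0.99 without KTC mouse 9 (adjusted p = 0.0061). Ambra1#1 against Ambra1#2 (0.31) and Ambra1#2 against Ambra1#3 (0.55) did not pass in KTC mice (exact permutation against KT, adjusted p = 0.23 each).

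In KPTC mice, Ambra1#1 exceeded Ambra1#2 by 0.83 and Ambra1#3 by 1.26 beyond the ratios in KT mice (exact permutation, adjusted p = 0.043 each). Ambra1#2 exceeded Ambra1#3 by 0.44 (exact permutation, adjusted p = 0.057). The 2 calls ended without any 1 KT mouse (exact permutation, adjusted p = 0.057 to 0.086) and with a minimum of 1000 cells (0.38 and 0.96). They also ended among barcodes listed in 1 mouse only (-0.57 and 0.53), a setting that left out most Ambra1#1 tumours. No guide pair differed between KTC and KPTC mice (exact permutation, adjusted p = 0.18 to 0.79).

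The guides' shares of the Ambra1 tumours shifted with tumour size. Among all listed Ambra1 barcodes Ambra1#1 held 38.1% in KT, 35.6% in KTC and 36.2% in KPTC mice. Among Ambra1 tumours of at least 20000 cells it held 10 of 31 in KT mice (32.3%), 103 of 220 in KTC mice (46.8%) and 114 of 227 in KPTC mice (50.2%). Ambra1#3 held 25.8%, 28.5% and 27.8% of the listed barcodes, and 22.6%, 18.6% and 18.1% of tumours of that size. These pooled shares give mice with many tumours more weight and were not tested.

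Ambra1 tumours of at least 500 cells were also more numerous relative to inert tumours in KTC than in KT or KPTC mice. The log2 ratio of the number of Ambra1 tumours to inert tumours was -1.65, -1.82, -1.58 and -2.13 in KT mice 1 to 4. In KTC mice 1 to 9 it was -0.25, -1.67, -0.98, -1.18, -0.82, 0.70, 0.19, -0.92 and -1.38. In KPTC mice 1 to 4 it was -1.71, -1.69, -1.94 and -1.62. KTC mouse 2 lay among the KT mice, the other 8 KTC mice above them, and the KPTC mice overlapped with KT.

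As counts, KTC mouse 6 had 47 Ambra1 and 29 inert tumours, KTC mouse 2 had 823 and 2622, and KT mouse 1 had 2255 and 7075. The KTC mean exceeded KT by 1.09, or 2.13-fold (exact permutation, adjusted p = 0.028), and exceeded KPTC by 1.04 (exact permutation, adjusted p = 0.028). The KPTC mean exceeded KT by 0.05 (exact permutation p = 0.69). Each guide showed the KTC rise in number, by 2.09, 2.14 and 2.14 times (exact permutation, adjusted p = 0.039, 0.039 and 0.034), where 75% of the 8 guides were called in number in KTC mice and 0% in KPTC mice. In KPTC mice the smallest p of a guide, 0.029, rose to 0.057 when adjusted over 8 guides (exact permutation). By gene, KPTC against KT was called in number for Rb1 (0.70), Apc (0.22) and Rbm10 (-0.28), though not for Ambra1 (exact permutation, adjusted p = 0.038 for each of those called). The excess of KTC over KPTC was not particular to Ambra1. Rbm10 tumours showed it at 0.94 (exact permutation, adjusted p = 0.028), and Apc tumours had 0.32 (exact permutation, adjusted p = 0.098). Rb1 tumours went the other way, at -0.23 (exact permutation, adjusted p = 0.028). Ambra1 guides 1 to 3 gave 0.91, 1.22 and 1.01 (exact permutation, adjusted p = 0.087, 0.036 and 0.030). Both Rbm10 guides were called, at 0.93 and 0.95 (exact permutation, adjusted p = 0.030 each).

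The number comparison rested on few mice and on the minimum size. The KTC against KT call was lost without KT mouse 2 (1.08, exact permutation, adjusted p = 0.061) or KT mouse 4 (0.98, adjusted p = 0.068). The KTC against KPTC call was lost without KTC mouse 1 (0.98, exact permutation, adjusted p = 0.054) and without any of the 4 KPTC mice (0.97 to 1.08, adjusted p = 0.061 to 0.097). The calls of single guides in number were lost on leaving out 8 mice in turn for Ambra1#1, 8 for Ambra1#2 and 5 for Ambra1#3 (exact permutation, adjusted p = 0.051 to 0.10). Counted from 200 cells, KTC exceeded KT by 0.11 (adjusted p = 0.62 by exact permutation), and KPTC fell by 0.36 below KT (adjusted p = 0.038). That minimum lies below the smallest barcode of KPTC mouse 1 (263 cells). Counted from 5000 cells, KTC exceeded KT by 3.66 and KPTC exceeded KT by 1.59 (adjusted p = 0.0027 and 0.057 by exact permutation), and counted from 1000 cells KPTC exceeded KT by 0.41 (adjusted p = 0.076). A count above a fixed size takes in growth past that size as well as the number of tumours started, and these cannot be told apart here.

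**Figure D2:**
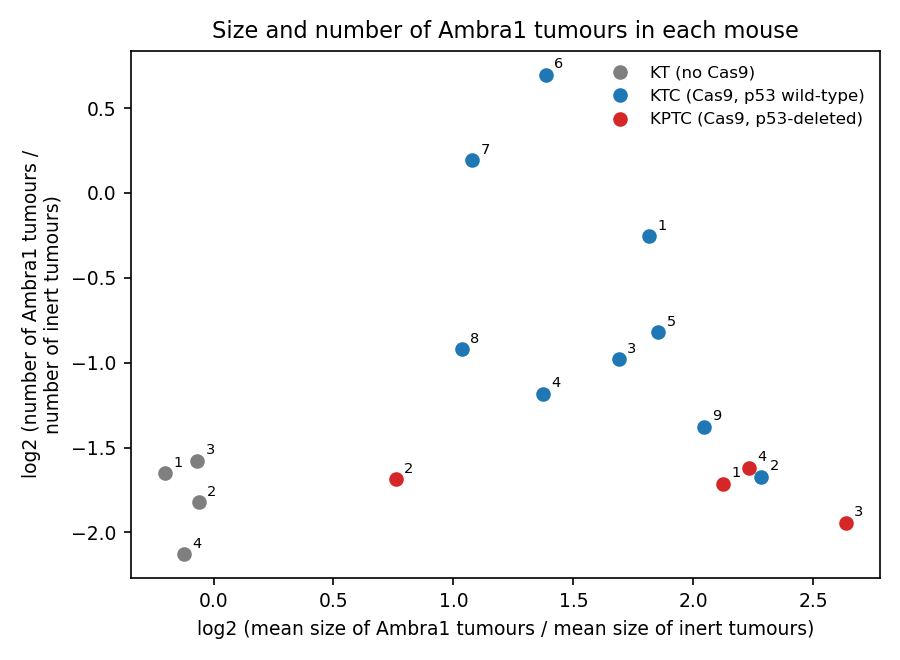
Relative size (x axis, log2) and relative number (y axis, log2) of Ambra1 tumours of at least 500 cells, a point per mouse with its number. KT mice lie at the lower left, KPTC mice lie to the right at the KT level of number except for mouse 2 at 0.76, and KTC mice spread upward to 0.70 in mouse 6.

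The share of Ambra1 tumours among Ambra1 and inert tumours was higher at larger minimum sizes in mice with Cas9. At a minimum of 500 cells KT mice had 22.5 ± 2.9%, KTC mice 38.6 ± 12.5% and KPTC mice 23.1 ± 1.7% (SD, n = 4, 9 and 4). At 2000 cells it was 19.7 ± 3.9%, 61.8 ± 17.4% and 32.5 ± 8.4%. At 5000 cells it was 18.5 ± 4.9%, 75.4 ± 12.8% and 40.3 ± 11.3%. At 10000 cells it was 26.4 ± 5.0%, 83.2 ± 11.0% and 48.4 ± 11.3%. At 20000 cells it was 18.4 ± 13.2%, 90.4 ± 11.1% and 57.6 ± 10.8%. KT means thus moved between 18.4 and 26.4% with no steady trend up to this size, and at 50000 cells 3 KT mice had 3 Ambra1 and 8 inert tumours in all. At 20000 cells Ambra1 tumours outnumbered inert tumours by 220 to 30 in KTC and by 227 to 161 in KPTC mice, against 31 to 110 in KT mice.

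KTC exceeded KT by 42.1 percentage points at 2000 cells and by 72.0 points at 20000 cells (exact permutation, p adjusted over 8 minimum sizes = 0.0028 at 2000, 5000, 10000 and 20000 cells). All 9 KTC mice lay above all KT mice at these sizes. Smaller minimum sizes passed too, with 16.1 points at 500 cells and 30.4 points at 1000 cells (adjusted p = 0.035 and 0.018 by the same exact test). They did not without any of the 4 KT mice, nor at 500 cells without KTC mouse 1 or 7 (14.3 to 16.99 points at 500 cells and 29.4 to 31.3 at 1000, exact permutation, adjusted p = 0.051 to 0.091).

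KPTC exceeded KT by 12.7 points at 2000 cells and by 39.2 points at 20000 cells, with all 4 KPTC mice above all KT mice (p = 0.029 before and 0.057 after adjustment from 2000 to 20000 cells, by exact permutation). These passed without KPTC mouse 2, with 15.9 points at 2000 cells and 44.1 points at 20000 cells (adjusted p = 0.046 by exact permutation). The difference at 500 cells was 0.59 points (adjusted p = 0.74 by exact permutation), and without KT mouse 4 it was -0.69.

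KTC exceeded KPTC by 15.5, 25.2, 29.3, 35.1, 34.9 and 32.7 points at 500, 1000, 2000, 5000, 10000 and 20000 cells (adjusted p = 0.035, 0.035, 0.014, 0.0056, 0.0056 and 0.0075 by exact permutation). From 5000 cells the lowest KTC mouse had 61.9% and the highest KPTC mouse 53.3%. From 20000 cells the genotypes overlapped, with KPTC mouse 1 at 68.8% and KTC mouse 8 at 66.7%. The difference at 2000 cells was 26.2 points without KPTC mouse 2 (exact permutation, adjusted p = 0.064). The calls at 500 and 1000 cells were lost without any KPTC mouse and without KTC mouse 1 or 7 (13.7 to 27.3 points, exact permutation, adjusted p = 0.058 to 0.097). Above 50000 cells there was no call, and 4 KTC mice and 2 KT mice had an Ambra1 or inert tumour of 100000 cells. Inert tumours themselves were larger in KPTC than in KTC mice, 2221 ± 413 against 1350 ± 325 cells, so a share above a fixed size is set by both.

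**Figure D3:**
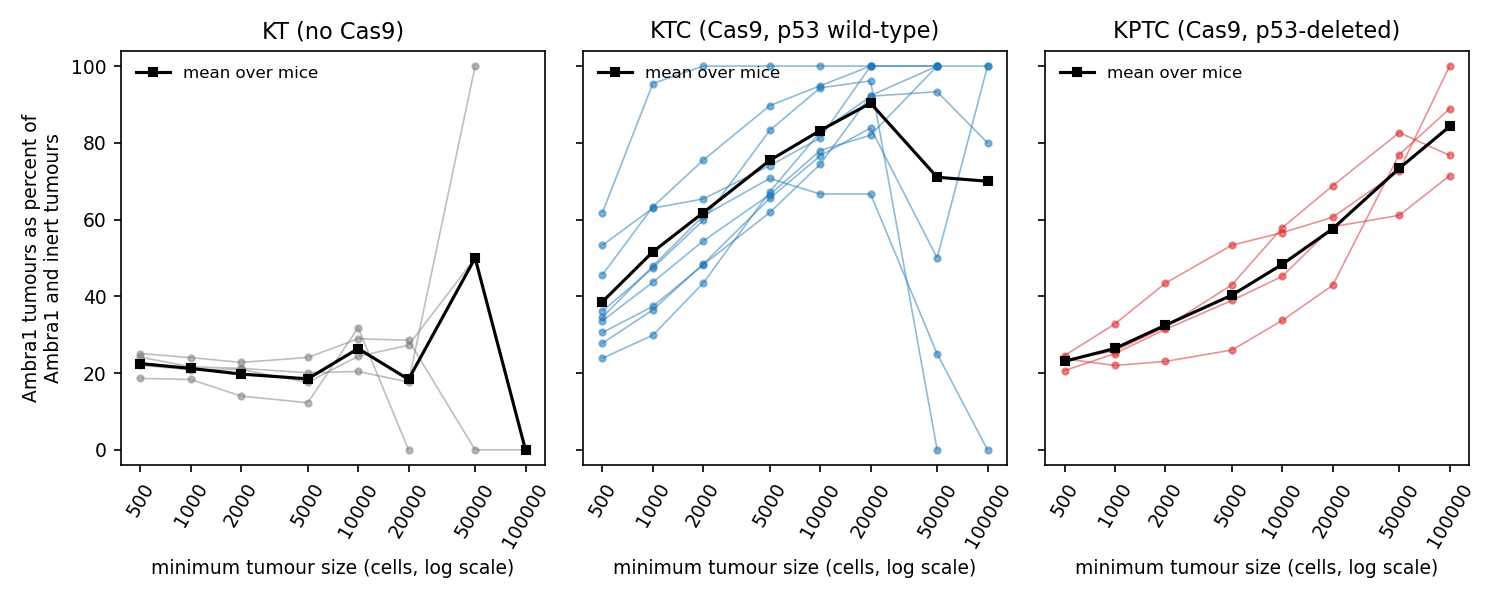
Ambra1 tumours as a percentage of Ambra1 and inert tumours (y axis) above each minimum size (x axis, cells, log scale), a thin line per mouse and a black line for the mean over the mice that have such tumours. KT means stay between 18.4 and 26.4% up to 20000 cells, KTC lines climb from a mean of 38.6% to 90.4% at 20000 cells, and KPTC lines climb from 23.1% to 57.6%. Beyond 20000 cells the KT and KTC lines rest on few tumours.

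Separate size classes show where the genotypes overlapped. Between 500 and 1000 cells KT mice had an Ambra1 share of 23.6 ± 3.5%, KTC mice 27.7 ± 11.5% and KPTC mice 19.7 ± 4.2%. Between 1000 and 2000 cells it was 22.2 ± 2.1%, 40.8 ± 24.2% and 19.4 ± 3.0%. Between 2000 and 5000 cells it was 20.3 ± 3.7%, 49.9 ± 22.9% and 22.3 ± 7.7%. KTC mice spread widely in these classes, from 14.8 to 92.9% between 1000 and 2000 cells, and mice with few tumours raised their mean. With the tumours of all KTC mice pooled, the share was 21.7, 26.7 and 36.2% in these 3 classes, against 25.0, 22.6 and 21.8% in KT mice. In KPTC mice it was 22.02, 19.3 and 20.6%.

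From 5000 to 50000 cells all KTC mice lay above all KT mice, while KPTC mice overlapped with KT in each class. Between 5000 and 10000 cells KT mice had 14.4 ± 9.9%, KTC mice 67.6 ± 17.2% and KPTC mice 27.3 ± 13.3%, with the lowest KPTC mouse at 14.0% and the highest KT mouse at 21.8%. Between 10000 and 20000 cells it was 29.4 ± 10.1%, 80.1 ± 12.5% and 35.8 ± 12.1%. Between 20000 and 50000 cells it was 15.7 ± 13.1%, 92.2 ± 8.6% and 49.4 ± 14.7%. Above 100000 cells KPTC mice had 57 Ambra1 and 14 inert tumours, KTC mice 6 and 2, and KT mice no Ambra1 and 5 inert tumours. The classes are given as a description and were not tested.

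Ambra1 tumours were frequent among the largest tumours of mice with Cas9. Of the 10 largest tumours of any guide, 3, 5, 8, 3, 8, 6, 5, 4 and 6 carried an Ambra1 guide in KTC mice 1 to 9. The count was 3, 5, 4 and 3 in KPTC mice and 1, 2, 0 and 0 in KT mice. No KTC mouse overlapped with KT (difference 4.58 tumours, exact permutation, adjusted p = 0.0056). KPTC mice did not overlap with KT either (difference 3, exact permutation p = 0.029, adjusted p = 0.057). The KPTC call was reached without KT mouse 3 (2.75, exact permutation, adjusted p = 0.038). Rb1 guides marked 4, 4, 5 and 5 of the 10 largest in KPTC mice, and 0 to 3 in KTC mice.

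As a share of all cells in tumours of at least 500 cells, whatever the guide, Ambra1 tumours held 15.2, 15.0, 15.7 and 10.8% in KT mice 1 to 4. In KTC mice they held 31.4 to 49.9% (median 43.4%). In KPTC mice 1 to 4 they held 33.4, 14.7, 35.0 and 39.2%, with mouse 2 at the KT level. KTC exceeded KT by 28.8 percentage points (exact permutation, p adjusted over 3 comparisons = 0.0042). KPTC exceeded KT by 16.4 points (exact permutation p = 0.11), or by 21.7 points without KPTC mouse 2 (adjusted p = 0.043). KTC exceeded KPTC by 12.4 points (exact permutation, adjusted p = 0.025), and by 7.10 points without KPTC mouse 2 (adjusted p = 0.095).

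The sizes of Ambra1 tumours were also more unequal with Cas9. The SD of log2 cell number, minus that of inert tumours of the same mouse, averaged -0.05 ± 0.03 over KT mice, 0.68 ± 0.17 over KTC mice and 0.85 ± 0.23 over KPTC mice. KTC exceeded KT by 0.72 (exact permutation, adjusted p = 0.0056) and KPTC exceeded KT by 0.89 (adjusted p = 0.029). KTC and KPTC differed by -0.17 (exact permutation p = 0.16), and without KPTC mouse 2 by -0.29 (adjusted p = 0.036). A wider spread was not particular to Ambra1. In KTC against KT mice it was 0.35 for Rb1, 0.36 for Apc and 0.23 for Rbm10 (exact permutation, adjusted p = 0.013, 0.013 and 0.18). In KPTC against KT mice it was 0.71, 0.38 and 0.29 (exact permutation, adjusted p = 0.029 each). The log-normal mean used for size also rises with this spread.

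In KPTC mice the largest 10% of tumours held most of the cells, for Ambra1 and inert tumours alike. The largest 10% of the Ambra1 tumours held 79.5, 86.1, 73.6 and 87.7% of Ambra1 cells in KPTC mice 1 to 4. It held 39.3 to 65.3% in KTC mice and 40.9 to 46.7% in KT mice. The largest 10% of the inert tumours held 65.2, 61.1, 69.1 and 64.2% of inert cells in KPTC mice 1 to 4, less than for Ambra1 in each. It held 16.8 to 58.1% in KTC mice and 39.9 to 47.9% in KT mice. For Ambra1 tumours KPTC exceeded KT by 38.0 points (exact permutation, adjusted p = 0.043), and KTC fell by 29.8 points below KPTC (adjusted p = 0.0042). KTC against KT gave 8.17 points (exact permutation, adjusted p = 0.0503), which passed without KTC mouse 1 (8.74), 5 (9.75) or 8 (6.49).

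The largest Ambra1 tumour was larger than the largest inert tumour in 7 of 9 KTC mice and in 4 of 4 KPTC mice, and in 1 of 4 KT mice. The mean log2 ratio of these was 1.31 ± 1.51, 2.52 ± 1.497 and -1.19 ± 1.43. KTC exceeded KT by 2.504 and KPTC exceeded KT by 3.71 (exact permutation, adjusted p = 0.043 each). Both calls were lost without KT mouse 3 (1.88 and 3.09, exact permutation, adjusted p = 0.13 each) or KT mouse 4 (2.40 and 3.60, 0.068 each), and the KPTC call without KPTC mouse 4 (3.003, 0.086). A ratio of single largest tumours also moves with the number of tumours behind each.

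Within KTC mice, Ambra1 tumours of at least 500 cells had a larger mean size than those of every other gene in the pool. Relative size exceeded that of Rb1 tumours by 1.10 ± 0.53 in 9 of 9 mice and of Rbm10 tumours by 1.18 ± 0.43 in 9 of 9 (exact sign-flip test within mice, p adjusted over 3 genes = 0.0059 each). It exceeded that of Apc tumours by 0.75 ± 0.61 in 8 of 9 mice, KTC mouse 7 being the exception at -0.29 (exact sign-flip test, adjusted p = 0.012). Among barcodes listed in 1 mouse only, the Apc difference was 0.24 (exact sign-flip test, adjusted p = 0.45), and with a minimum of 1000 cells it was 0.45 (adjusted p = 0.16). Counted from 5000 cells no gene passed, with 0.091 for Rb1, -0.13 for Apc and 0.27 for Rbm10 over 8 mice (adjusted p = 0.63 each by exact sign-flip test).

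In KPTC mice the order against Rb1 was not uniform. Ambra1 minus Rb1 was 0.66, -0.35, 1.21 and 0.24 in KPTC mice 1 to 4, so that mouse 2 had larger Rb1 tumours. Ambra1 minus Apc was 1.17, 0.37, 1.40 and 1.19, and Ambra1 minus Rbm10 was 1.66, 0.20, 1.76 and 1.53. With 4 mice the exact sign-flip test cannot go below p = 0.125, which Apc and Rbm10 reached. In KT mice the mean differences were -0.13, -0.24 and -0.09.

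By the mean absolute difference of log2 relative size over the 13 mice with Cas9, the gene most like Ambra1 was Apc (0.88), followed by Rb1 (0.95) and Rbm10 (1.21). Apc and Rb1 do not stand clearly apart by this measure.

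**Figure D4:**
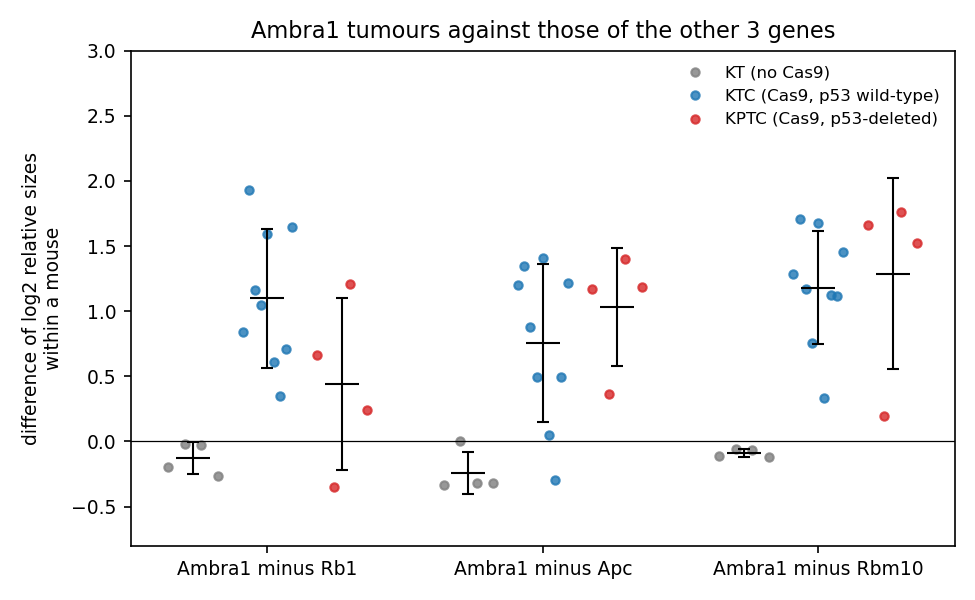
Difference in log2 relative size between Ambra1 tumours and those of each other gene within a mouse (y axis), a point per mouse, with the mean and SD per genotype. KTC points lie above 0 for Rb1 and Rbm10 in all 9 mice and for Apc in 8, KPTC points are lower against Rb1 than against Apc in all 4 mice, and KT points lie at or below 0.

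Among KTC mice, relative size was 1.80 ± 0.33 in 5 females and 1.39 ± 0.47 in 4 males, a difference of 0.42 that did not pass (exact permutation p = 0.17). All KPTC mice were male, so sex and p53 status overlap in part when the 2 Cas9 genotypes are compared. Among male mice alone, KTC exceeded KT in relative size by 1.45, where 2 KT males allow no p below 0.067.

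Across KTC mice the relative number of Ambra1 tumours fell as the number of inert tumours rose. To keep the measures separate, the ratio of Ambra1 to Neo tumours was set against the number of NT tumours, which ran from 9 in mouse 6 to 955 in mouse 2. Over 9 mice, Pearson's r was -0.90 (exact permutation p = 0.00063, adjusted over 2 relations 0.0013) and Spearman's rho -0.77 (p = 0.021, adjusted 0.043). Without mice 6 and 7, the farthest from the median, r was -0.67 (exact permutation p = 0.10) and rho -0.50 (p = 0.27), so the relation rests on those mice. The number of barcode reads per cell also differed between these mice, and its part in the relation was not tested. Relative size showed r = 0.53 and rho = 0.53 with the same load (exact permutation p = 0.14 and 0.15). Against all inert guides, Rbm10 tumours also had their highest relative number in mouse 6 (-0.05) and their lowest in mouse 2 (-1.76). Apc tumours had their lowest in mouse 2 too (-3.72), while Rb1 tumours ran only from -2.04 to -1.69. The relation with load was not tested for those genes.

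Ambra1 guides came with far fewer distinct barcodes than most other guides. From the overlap of listed barcodes between all pairs of mice, the number of barcodes in the viral pool was estimated as 31761 for Ambra1#1, 35430 for Ambra1#2 and 57521 for Ambra1#3. The other guides were estimated at 59685 (Apc#1), 213586 (NT2) and 476343 to 1906778. Pairs of KT mice alone gave 33152, 37860 and 58881 for the 3 Ambra1 guides, pairs of KTC mice 29853, 33644 and 56142, and pairs of KPTC mice 24575, 25998 and 45273. The estimates assume that each mouse drew barcodes independently and evenly, and that no barcode passed between libraries. All mice together listed 33402 distinct barcodes for Ambra1#1, 36174 for Ambra1#2 and 36944 for Ambra1#3. The estimates for Ambra1#1 and Ambra1#2 thus fall short of the barcodes listed and cannot be taken as their pool sizes.

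Of the Ambra1 tumours of at least 500 cells, 74.4% carried a barcode that was listed in more than 1 mouse, against 17.9% of inert tumours. By guide it was 83.6%, 78.1% and 54.6%. Barcodes that reached 500 cells in more than 1 mouse were fewer, with 12.8%, 12.1% and 4.67% of the tumours of guides 1 to 3. A small pool also means that 2 tumours of a mouse may share a barcode and be read as 1. KT mice listed 23.7 to 38.7% of the estimated Ambra1#1 pool, KTC mice 6.86 to 13.4% and KPTC mice 1.89 to 7.11%. Tumours of at least 500 cells took up at most 2.84% of that pool, in KT mouse 1. These percentages rest on an estimate below the number of distinct Ambra1#1 barcodes listed. Corrected for shared barcodes, the relative number of these tumours differed by 1.09 between KTC and KT, by 0.05 between KPTC and KT and by 1.04 between KTC and KPTC.

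**Figure D5:**
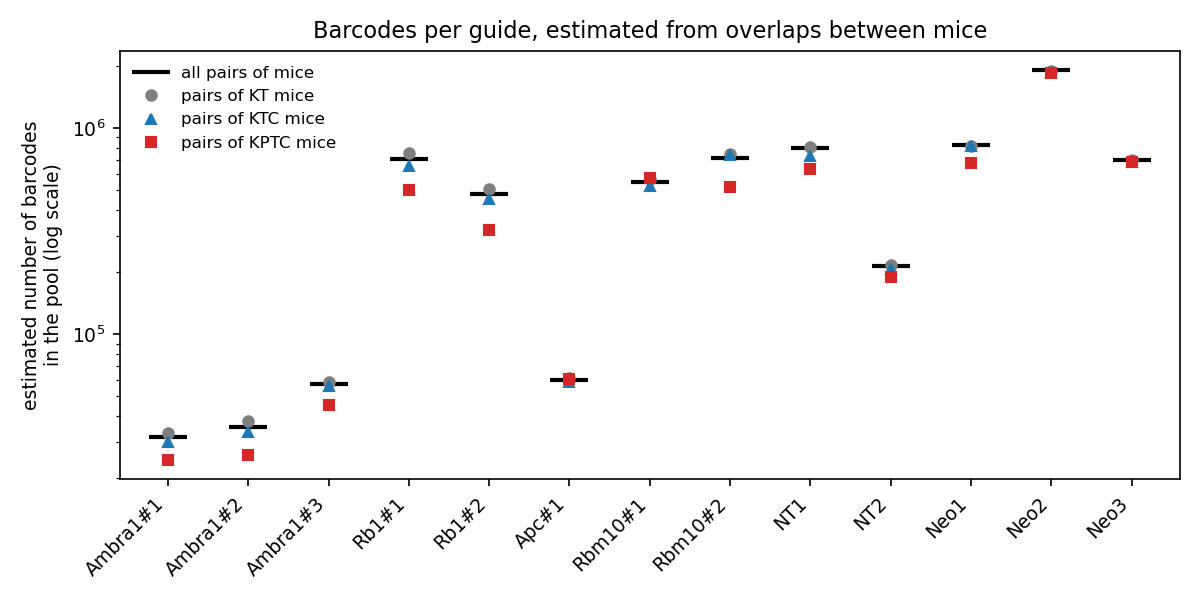
Estimated number of barcodes per guide in the viral pool (y axis, log scale), from overlaps between all pairs of mice (black bars) and between pairs within each genotype (symbols). The 3 Ambra1 guides, at 31761 to 57521, and Apc#1 lie below every other guide.

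At the level of all listed barcodes, down to 2 reads, the correction made a difference. Ambra1 guides held 15.5 ± 0.7% of listed barcodes in KT, 14.6 ± 0.8% in KTC and 14.0 ± 0.9% in KPTC mice (exact permutation against KT, adjusted p = 0.11 each). Corrected for shared barcodes they held 17.2 ± 0.3%, 15.0 ± 0.8% and 14.1 ± 1.0%. The corrected share in KTC mice fell by 2.21 points below KT (exact permutation, adjusted p = 0.0042) and that in KPTC mice fell by 3.11 points (adjusted p = 0.043). Depth per cell and the smallest size listed differed between the genotypes, and their part in this difference was not tested. Neither share was called against KT without the correction. It rests on pool estimates that fall below the listed barcodes for Ambra1#1 and Ambra1#2. Too small an estimate makes the correction too large, most of all in KT mice. No conclusion is therefore drawn from the 2 calls.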

How the data were processed

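Genomic DNA of whole tumour-bearing lungs was amplified over the guide and barcode region after 3 benchmark cell lines had been added to each lung, per the labels' protocols. The authors deposited 1 table per genotype with a cell number per guide, barcode and mouse, a signal scaled from reads to the benchmarks. Read alignment and barcode clustering: not given in the sources used here. Values were whole multiples of 1 read's worth in each mouse, within 0.1 read, for 100% of barcodes, which gave the depth.

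A barcode of at least 500 cells was taken as 1 tumour. Mean size came from a log-normal fit by maximum likelihood. The mouse was the replicate, numbered within a genotype by its identifier, so numbers pair nothing across genotypes. Groups were compared by two-sided exact permutation of mouse labels (715 splits for 9 against 4, 70 for 4 against 4) and pairs within mice by two-sided exact sign-flipping. Benjamini-Hochberg adjustment covered the 4 genes, 8 guides, 8 minimum sizes, 3 guide pairs, 3 comparisons or 2 relations named at each result, and 0.05 was the threshold. The test of relative size was tried on inert tumours of these mice, scaled by a known factor to stand in for a gene. Scaling came after the minimum of 500 cells, so no tumour crossed that minimum, and the trial cannot speak to its effect. The other tests were not tried in this way. Python 3.11.15, numpy 2.4.6, pandas 2.3.3 and scipy 1.17.1 were used, and gene identity came from a RefSeq gene table.

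The gene, its guides and the measures were chosen with earlier results of these data known. All 3 Ambra1 guides are named, other genes only where compared with Ambra1, and single tumours if they were the largest Ambra1 tumour of a genotype or exceeded 1000000 cells. No cell-type markers apply. The allele that K stands for, shared by all 3 genotypes, is not reported here. Alternatives were other minimum sizes, a geometric mean, number-matched largest tumours, NT or Neo guides alone, males alone, barcodes listed in 1 mouse only, barcodes near a larger one left out, and each mouse left out. The correction for shared barcodes, the joint removal of KTC mice 6 and 7 and some removals of single mice were chosen after seeing the data.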

Additional observations from a re-analysis of the deposited data

Results flagged for a closer look

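Values were looked at in 33 groups of 4 or 9 mice for 1 mouse far from the others, and 3 such values were found, where chance gives about 1 in 20 groups. In KPTC mouse 2 the spread of Ambra1 tumour sizes was 0.50 above that of inert tumours, with the next mouse at 0.92. In the same mouse Ambra1#1 tumours had a relative size of 1.07, with the next mouse at 2.82. In KTC mouse 2, Ambra1#2 tumours had a relative size of 2.56, with the next mouse at 1.72.

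KTC and KPTC mice differed by the test of the difference itself in the relative number of Ambra1 tumours, by 1.04 on the log2 scale. They also differed in the share of Ambra1 tumours above 500 cells (15.5 percentage points), 1000 cells (25.2), 2000 cells (29.3), 5000 cells (35.1), 10000 cells (34.9) and 20000 cells (32.7). Sex differed between the genotypes too, since all KPTC mice were male.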

How the results depend on the processing

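The excess in relative size of Ambra1 tumours in KTC over KT mice was 1.65 to 1.80 on the log2 scale and called with each mouse left out in turn, and in 9 of 11 other settings. Counting from 5000 cells it was 0.33 (adjusted p = 0.58 by exact permutation), with no inert tumour left in KTC mouse 6, and in males alone 1.45, where 2 KT males allow no call. In all, 385 of 467 alternatives of the main results kept direction and side of the threshold, and 13 changed direction. The cause of such changes was not tested.

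Counting from 5000 cells leaves 0 to 142 inert tumours in a KTC mouse and 35 to 620 in a KT or KPTC mouse, and other values were 1.42 (size, KPTC against KT), -1.09 (size, KTC against KPTC, now called), 0.19 and 0.69 (spread, KTC and KPTC against KT), and 0.091, -0.13 and 0.27 (Ambra1 minus Rb1, Apc and Rbm10 in KTC). The guide pairs 1 over 3 and 2 over 3 were -0.046 and -0.10 in KTC, and 1 over 2, 1 over 3 and 2 over 3 were 0.29, -0.61 and -0.90 in KPTC. The relation of number with load was r = -0.50, and 0 of 8 guides were called larger in either genotype.

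With a minimum of 1000 cells, number differed by 2.18 (KTC against KT) and 1.77 (KTC against KPTC) and neither was called, size by -0.77 (KTC against KPTC, called), guide pairs in KPTC by 0.38 (1 over 2) and 0.96 (1 over 3), and Ambra1 minus Apc in KTC was 0.45. With a minimum of 200 cells, KTC against KPTC size was 0.25, number 0.11 (KTC against KT) and -0.36 (KPTC against KT), and guide 1 over 3 in KTC 0.89, now called. KTC against KPTC size was 0.18 with a geometric mean and 0.62 with number-matched largest tumours, and female minus male size was -0.19 with the latter.

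With NT guides alone as reference, number differed by 1.0005 between KTC and KPTC without a call, and 4 of 8 guides were called larger in KTC. Among barcodes listed in 1 mouse only, the guide pairs in KPTC were -0.57 (1 over 2) and 0.53 (1 over 3), Ambra1 minus Apc in KTC was 0.24, and KTC exceeded KPTC at 20000 cells by 38.96 points without a call.

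Among males alone, values without a call were 2.00 (size, KPTC against KT), 1.35 and 1.39 (number, KTC against KT and KPTC), -0.040 (number, KPTC against KT), 59.7 and 30.03 points (share at 20000 cells, KTC against KT and KPTC), 4.25 (10 largest, KTC), 0.85 and 1.15 (guides 1 over 2 and 1 over 3, KPTC), 0.67 and 0.86 (spread, KTC and KPTC), with 0 of 8 guides in either genotype.

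With each mouse left out, size ran from 1.82 to 2.44 (KPTC against KT) and -0.71 to -0.088 (KTC against KPTC). Number ran from 0.92 to 1.21 (KTC against KT), -0.056 to 0.13 (KPTC against KT) and 0.86 to 1.16 (KTC against KPTC), and for Ambra1#3 in KPTC against KT from -0.0048 to 0.28. KPTC against KT ran from 33.1 to 44.1 points at 20000 cells, -0.69 to 1.47 at 500 cells and 2.58 to 3.42 of the 10 largest. At 50000 cells the share differences ran from -3.96 to 46.04 (KTC against KT), -1.64 to 48.4 (KPTC against KT) and -6.45 to 7.83 (KTC against KPTC), and at 100000 cells from -24.3 to 9.07 (KTC against KPTC). Guide pairs ran from 0.79 to 0.99 (1 over 3, KTC), 0.68 to 0.97, 1.12 to 1.46 and 0.37 to 0.52 (KPTC), and guides called larger from 3 to 8 of 8 in KTC and 0 to 7 in KPTC. No paired analysis was possible because mouse numbers link no mice across genotypes.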
